A study of Rattus norvegicus with 63 samples.

Results

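The synaptic vesicle release genes described here are Rims1, Rab3a, Unc13a, Stx1a, Snap25, Syt1, Cplx1, Cplx2, Syn1 and Syn2, 10 of the 14218 genes named on 63 Affymetrix rat expression arrays. Members were taken by gene symbol. They have 16 probe sets between them, and each gene was read from the probe set with the highest mean signal over all arrays. Signals are given as log2 of the deposited linear intensity, a difference of 1 being a doubling, and the signals of different genes are not compared with each other because probe sets differ in brightness.

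The arrays held tissue from male Wistar rats, 31 from the prefrontal cortex (PFC) and 32 from the striatum, here the rostral part of the caudate putamen together with the nucleus accumbens. The rats arrived at 4 weeks of age and were injected from 6 weeks on, 2 times a day for 7 days. The naive cohort received saline in that week, and the pretreated cohort's stimulant groups received 5 mg/kg of amphetamine, methamphetamine or methylphenidate. Naive rats were then conditioned in a place preference test with saline, with amphetamine or methamphetamine at 1.25 or 5 mg/kg, or with methylphenidate at 5 mg/kg. Pretreated rats were conditioned with 5 mg/kg of the same stimulant, or with saline. All groups went on to self-administration, at 0.1 mg/kg per infusion for amphetamine and methamphetamine, 0.25 mg per infusion for methylphenidate, and 0.1 ml saline for controls. Brains were collected a day after the last test from the animals that had self-administered most robustly, so every stimulant group is a selection of such animals. The 20 groups hold 3 arrays each, except 5 in each naive saline group and 2 for methamphetamine at 1.25 mg/kg in the PFC. The labels speak of RNA pools and do not settle whether an array is 1 rat or a pool, so p-values measure the spread between arrays.

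Release of a transmitter begins when a vesicle bearing the small GTPase Rab3 is tethered at the active zone by RIM proteins and primed by Munc13. Syntaxin and SNAP-25 on the plasma membrane then zip up with synaptobrevin on the vesicle, complexins hold and promote that SNARE complex, and synaptotagmin triggers fusion when calcium enters. Synapsins keep a reserve of vesicles near the terminal. The mRNAs of these proteins are made in neuronal cell bodies, so tissue of the PFC or the striatum reports on the neurons that reside there and not on the dopamine fibres that reach it from the midbrain. Amphetamine and methamphetamine, which differ by a methyl group on the nitrogen that only methamphetamine carries, release dopamine through its transporter, and methylphenidate blocks that transporter.

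The promoters of 9 members (Snap25 was not matched) were read from RefSeq on the build GRCr8, as windows of 300 bases running from 250 bases before the listed start to 50 after it. The cAMP response element TGACGTCA, the site of the activity-regulated factor CREB, was searched as the full palindrome and as its core TGACG or CGTCA, which the palindrome contains. The full element stood in the Syn1 window alone among the 9, at position -190 from the start, and in 1.83% of 33469 rat promoter windows of that length. The core stood in the windows of Cplx1, Cplx2, Rab3a, Syn1 and Unc13a, in Cplx2 only past the start, against 21.2% of all windows. The upstream stretches that hold it are shown 5′ to 3′ with those letters in capitals, so that the place of the core can be compared between the members. They lie at chrX:3725525-3725592 (plus strand), chr16:18722311-18722375 (minus), chr14:1329020-1329072 (plus) and chr16:18415787-18415878 (minus), in that order.
Syn1: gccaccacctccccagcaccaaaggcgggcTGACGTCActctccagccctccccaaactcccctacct
Rab3a: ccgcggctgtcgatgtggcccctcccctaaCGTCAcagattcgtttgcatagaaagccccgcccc
Cplx1: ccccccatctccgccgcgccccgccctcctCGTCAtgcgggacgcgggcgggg
Unc13a: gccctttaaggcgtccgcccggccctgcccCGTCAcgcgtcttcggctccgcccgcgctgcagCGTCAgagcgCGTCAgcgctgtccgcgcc

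A GC box, GGGCGG or CCGCCC, the site of Sp factors, was present in all 9 member windows and in 33.1% of all windows, whereas the TATA box TATAAA (14.2% of windows) and the Egr site GCGTGGGCG (0.544%) were in none of the 9. The stretches below show the GC boxes in capitals for Stx1a, the member with the largest deficit in striatum, Cplx2, the member that was higher there, and Rims1, the member with the smallest p-value against stimulants. They come from chr12:27306485-27306656, chr17:10236820-10236855 and chr9:32692881-32692979, all on the minus strand. The Cplx2 and Rims1 stretches lie inside the annotated spans of their genes, and the Stx1a stretch partly so.
Stx1a: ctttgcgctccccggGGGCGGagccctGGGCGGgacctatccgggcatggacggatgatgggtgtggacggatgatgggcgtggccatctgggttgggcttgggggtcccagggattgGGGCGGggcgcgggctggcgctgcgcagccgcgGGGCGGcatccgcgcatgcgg
Cplx2: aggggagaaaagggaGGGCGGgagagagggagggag
Rims1: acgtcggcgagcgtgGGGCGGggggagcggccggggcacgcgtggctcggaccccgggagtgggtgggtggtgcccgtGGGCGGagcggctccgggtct

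2 features of the arrays bear on what follows. The signal of the BioB spike-in control split the naive arrays into a set A of 23 (log2 9.35 to 10.6) and a set B of 16 (5.96 to 6.68). All methylphenidate and all 5 mg/kg amphetamine arrays of the naive cohort were in set B, the other naive stimulant arrays were in set A, and the naive saline group had 3 arrays in A and 2 in B in each region. Every pretreated array had a high BioB signal. Striatal arrays had striatal projection neuron markers at a mean of 12.1 to 12.8 and cortical markers at 5.43 to 7.65, with 1 exception. The naive striatal array of methamphetamine 1.25 mg/kg, replicate 1, had striatal markers at 9.02 and cortical markers at 9.21, inside the PFC ranges of 7.87 to 9.58 and 8.49 to 9.60. A free-text label of the first naive striatal saline array names the PFC, but its title, its tissue label and its profile were those of striatum.

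**Figure D1:**
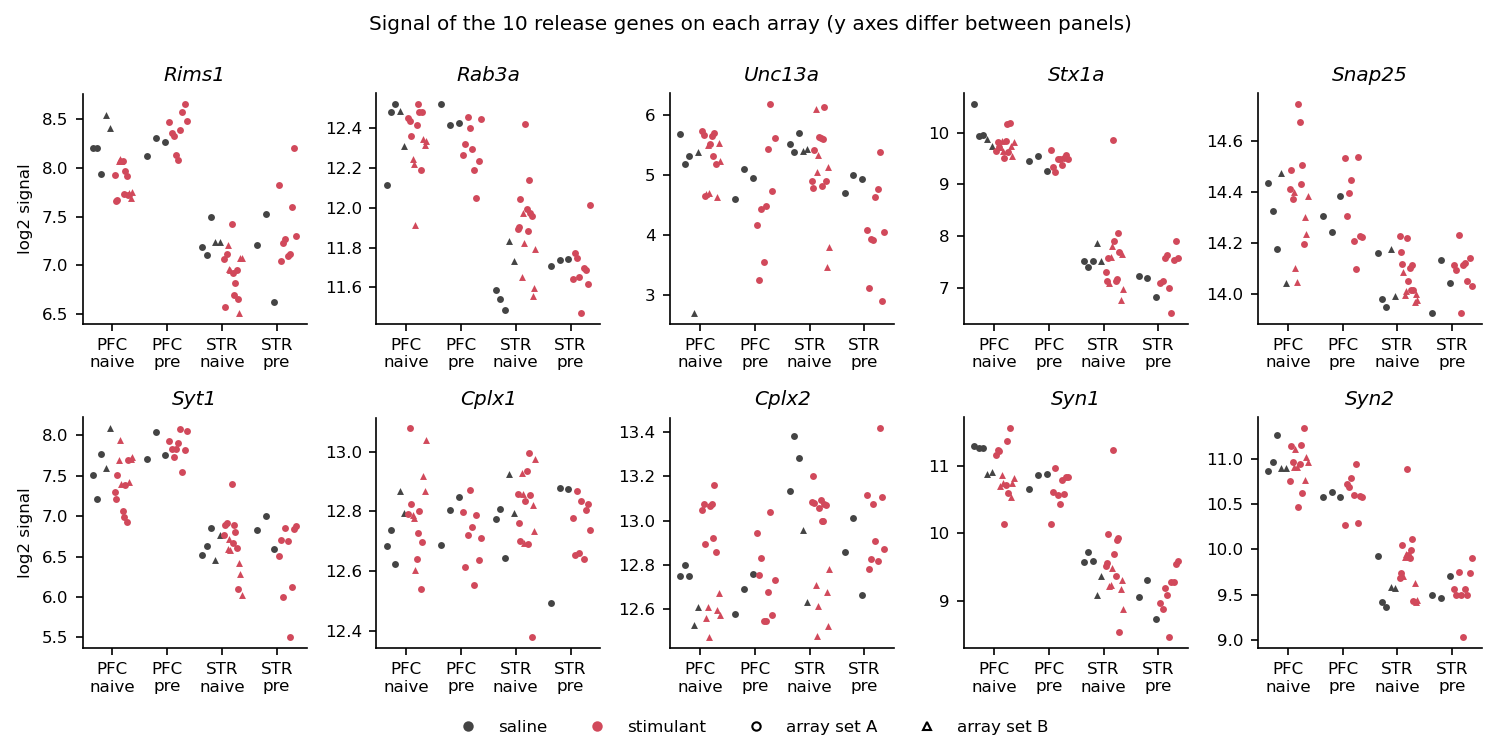
Log2 signal (y) of each release gene on every array, by region and cohort (x; pre, pretreated), with saline in grey and stimulants in red, and array set A as circles and B as triangles. Stx1a, Syn1 and Syn2 have separate PFC and striatal bands apart from the single striatal array of cortical profile, and Cplx1 lies at one level throughout.

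The largest differences of the release genes lay between the brain regions. In saline rats of the naive cohort, Stx1a was 5.44-fold, Syn1 3.16-fold, Syn2 2.65-fold, Rims1 2.01-fold, Rab3a 1.68-fold and Snap25 1.18-fold lower in striatum than in PFC, Cplx2 was 1.31-fold higher, and Cplx1 did not pass the test. Thus 7 of the 8 members tested passed an adjusted p of 0.05 (limma, Benjamini-Hochberg over 8530 genes), when 40.4% of all tested genes did so, 21.2% higher and 19.2% lower. The signal filter of this comparison used the mean over both regions. Stx1a (mean 9.69 in PFC and 7.46 in striatum) and Rims1 (8.11 and 7.13) lay above the filter in PFC alone and below it in striatum alone, so their high region let them into the test. The members' median difference was -0.88 and the median of all genes 0.03. Saline rats of the pretreated cohort gave 6 of 8, when 27% of genes passed, 13% higher and 14% lower, and the median was again -0.88.

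Stx1a encodes syntaxin-1A, a SNARE of the plasma membrane. Its signal was 10.55, 9.94, 9.95, 9.88 and 9.75 on the naive saline PFC arrays and 7.52, 7.41, 7.52, 7.88 and 7.52 on the striatal ones, with a wide gap between the lowest cortical and the highest striatal array. The difference was -2.44 ± 0.24 (SE, adjusted p = 1.26e-11), and -2.33 ± 0.32 in the pretreated cohort (adjusted p = 8.39e-08). A dimmer Stx1a probe set gave -2.29 and -1.83.

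Snap25 encodes the other plasma membrane SNARE of the group. Its naive saline signals were 14.44, 14.33, 14.18, 14.48 and 14.04 in PFC and 14.16, 13.98, 13.95, 14.17 and 13.99 in striatum, so the regions overlapped. The difference was -0.24 ± 0.08 (adjusted p = 0.0102) and in the pretreated cohort -0.28 ± 0.10 (adjusted p = 0.0324). The pretreated call was lost without PFC saline replicate 1 or 3 or striatal saline replicate 1 or 3, with adjusted p from 0.0284 to 0.152 over the 6 arrays left out in turn.

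Both synapsins were lower in striatum. Syn1 had 11.30, 11.27, 11.27, 10.89 and 10.91 in PFC against 9.57, 9.73, 9.59, 9.08 and 9.36 in striatum, and the last 2 arrays of each region, which belong to set B, were the lowest of their group. The difference was -1.66 ± 0.22 (adjusted p = 2.10e-08), and -1.77 ± 0.29 in the pretreated cohort. A dimmer Syn1 probe set gave -0.56 (adjusted p = 0.0528) and -1.08, the same direction at a smaller size.

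Syn2 had 10.86, 10.97, 11.26, 10.90 and 10.90 in PFC against 9.93, 9.42, 9.36, 9.58 and 9.57 in striatum. No striatal saline array reached a cortical one. The difference was -1.41 ± 0.14 (adjusted p = 2.64e-11) and -1.04 ± 0.19 in the pretreated cohort, and 2 further Syn2 probe sets gave -1.52 and -1.18 in naive rats.

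Rims1, the active-zone scaffold RIM1, had 8.21, 8.20, 7.94, 8.55 and 8.40 in PFC against 7.19, 7.10, 7.50, 7.24 and 7.24 in striatum, again without overlap. The difference was -1.01 ± 0.15 (adjusted p = 3.55e-07) and -1.11 ± 0.20 in the pretreated cohort (adjusted p = 1.52e-05). Rab3a, its vesicle-borne partner, had 12.12, 12.48, 12.52, 12.48 and 12.31 against 11.59, 11.54, 11.49, 11.83 and 11.73. Its difference was -0.75 ± 0.09 (adjusted p = 1.98e-09) and -0.72 ± 0.12 in the pretreated cohort.

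The complexins stood apart from this pattern. Cplx1 had 12.68, 12.74, 12.62, 12.87 and 12.79 in PFC and 12.77, 12.81, 12.64, 12.93 and 12.79 in striatum, with overlapping ranges. The difference was 0.05 with a 95% interval of -0.12 to 0.22 (adjusted p = 0.687), and the pretreated interval was -0.25 to 0.19. Cplx2 had 12.75, 12.80, 12.75, 12.53 and 12.61 in PFC and 13.13, 13.39, 13.28, 12.96 and 12.63 in striatum, where 4 of 5 arrays lay above every cortical one. Its difference was 0.39 ± 0.10 (adjusted p = 0.00113) in naive rats and 0.17 ± 0.13 (adjusted p = 0.346) in pretreated rats.

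The remaining members were too dim for the test over both regions. Syt1, the fast calcium sensor, had 7.51, 7.21, 7.77, 7.60 and 8.09 in PFC and 6.52, 6.63, 6.85, 6.46 and 6.77 in striatum, a difference of -0.99 with an interval of -1.37 to -0.61. Unc13a, which encodes the priming factor Munc13-1, had 5.69, 5.20, 5.32, 2.71 and 5.39 against 5.52, 5.39, 5.70, 5.40 and 5.45, and no regional difference can be read from it, with an interval of -0.21 to 1.47. The Unc13a signal ranged from 2.71 to 6.19 over all PFC arrays.

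**Figure D2:**
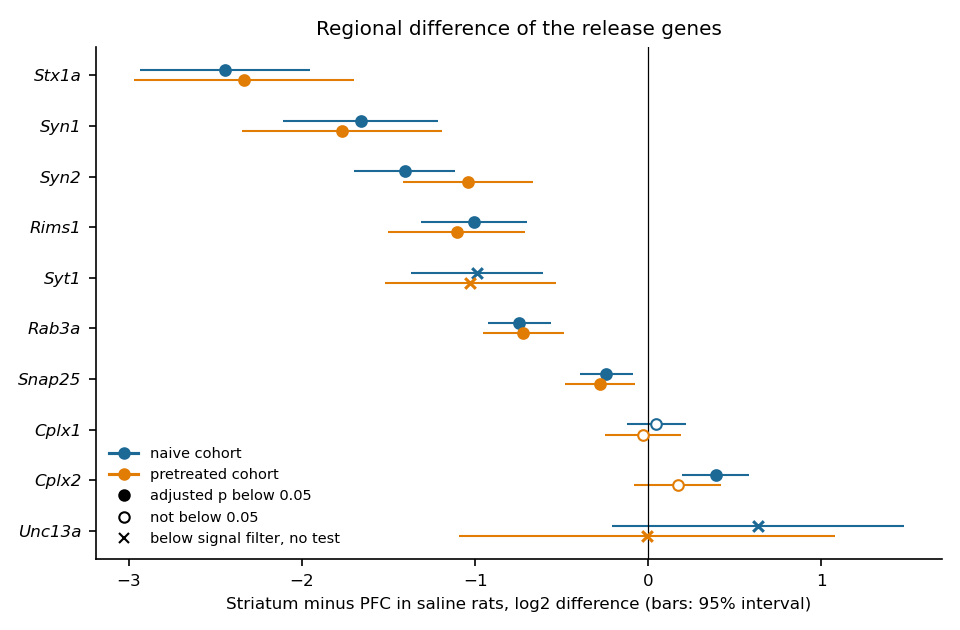
Striatum minus PFC log2 difference (x) of each release gene (y) in saline rats of the naive and pretreated cohorts, with 95% intervals; filled points passed an adjusted p of 0.05, open points did not, and crosses were below the signal filter. Naive differences run from -2.44 for Stx1a to 0.39 for Cplx2 among the tested genes, and pretreated ones from -2.33 to 0.17.

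Among 47 other tested genes of the release pathway, 4 were higher and 27 lower in striatum in naive saline rats, and 3 were higher and 19 lower in pretreated ones. Of all 8530 tested genes, 3444 were called in naive and 2300 in pretreated rats, with the shares by direction given above. The higher genes were Unc13c, a Munc13 relative (1.87), the vesicle protein Synpr (0.76), the liprin Ppfia1 (0.45) and the SNAP-25 binder Snapin (0.32). The lower ones with the largest differences were Syt17 (-2.97), the dense-core vesicle priming factor Cadps2 (-2.43), beta-synuclein Sncb (-1.72), the RIM-binding protein Rimbp2 (-1.34) and the clathrin adaptor Snap91 (-1.34). The general neuronal marker list was lower in striatum too, with 5 of 7 genes called and a median of -0.57, its mean running from 12.0 to 12.2 on striatal and from 12.6 to 12.7 on cortical naive saline arrays. Oligodendrocyte markers were higher, 5 of 5 tested genes being called with a median of 0.57, and no marker of either list was at the floor of 1 on any array. In bulk tissue a smaller number of neurons and less mRNA per neuron cannot be told apart, and the part of cell composition in these differences was not tested.

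The striatal array of cortical profile carried cortical levels of several region-dependent members, but not of Rims1. It had Stx1a at 9.86, Syn1 at 11.24, Syn2 at 10.89, Rab3a at 12.42 and Syt1 at 7.39. The other 31 striatal arrays had at most 8.07, 9.99, 10.11, 12.14 and 7.00 for those genes. Rims1 was 7.43 on the array of cortical profile, below the lowest PFC array (7.66) and inside the range of the other striatal arrays (6.51 to 8.21). Snap25 was 14.22 on that array, inside the ranges of both regions. This array is labelled as a stimulant array and enters the naive striatal stimulant comparisons.

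The next question was whether self-administered stimulants changed the release genes, averaged over stimulants and against saline rats of the same cohort. No member passed in any of the 4 comparisons, in which 0.0586% of genes passed in naive PFC (0.0469% lower), 0.0703% in pretreated PFC, 0.0938% in naive striatum and 0.363% in pretreated striatum. At an unadjusted p under 0.05 there were 745, 465, 984 and 1385 genes in the same order. Each cohort has 1 saline group per region, which all stimulant comparisons of that cohort share.

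Apart from Rims1, the averaged differences in naive PFC were -0.27 ± 0.12 for Syn1 (adjusted p = 0.554), -0.25 ± 0.10 for Stx1a (0.507) and -0.24 ± 0.12 for Syt1 (0.593). Stx1a had a lowest signal of 9.51, a median of 9.73 and a highest of 10.19 on the 14 stimulant arrays, with 8 of 14 below every saline array. Those of Cplx2, Snap25, Cplx1, Rab3a and Syn2 lay between -0.06 and 0.15. In pretreated PFC the tested members other than Rims1 lay between -0.16 and 0.06, the lowest values being those of Syn1 and Rab3a, whose signal was below all saline arrays on 7 of 9 stimulant arrays.

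In naive striatum the averaged difference was 0.28 ± 0.13 for Syn2 (adjusted p = 0.389), or 0.22 (adjusted p = 0.402) without the array of cortical profile, and -0.18 ± 0.09 for Cplx2 (adjusted p = 0.450). Snap25, Cplx1 and Syn1 stood at 0.02, 0.01 and 0.07. Without that array Cplx2 stood at -0.18, Snap25 and Cplx1 both at 0.01 and Syn1 at -0.05. In pretreated striatum the tested members lay between -0.03 for Rab3a and 0.15 for Cplx2. The members below the signal filter there had -0.79 for Unc13a, -0.35 for Syt1, 0.29 for Rims1 and 0.25 for Stx1a, and the Unc13a stimulant arrays ran from 2.90 to 5.39 against 4.71 to 5.00 in saline, without a test.

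Rims1 had the smallest p of the members. In naive PFC the stimulant arrays had a lowest signal of 7.66, a median of 7.83 and a highest of 8.09, against saline values of 8.21, 8.20, 7.94, 8.55 and 8.40. All 14 stimulant arrays lay below the saline mean and 9 of 14 below every saline array, the overlap being with saline replicate 3. The difference was -0.40 ± 0.09 (unadjusted p = 7.43e-05, adjusted p = 0.0734), which is 1.32-fold lower and missed the threshold. Leaving out each array in turn gave -0.48 to -0.32, and the call was gained only without saline replicate 3, where it was -0.48 (adjusted p = 0.0303), and with the array set as a block it was -0.40 (adjusted p = 0.0368).

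Rims1 was lower in each array set of the naive PFC, a split examined after the data had been seen. In set A, 6 of 8 stimulant arrays lay below the 3 saline arrays, with a difference of -0.28 ± 0.10 (adjusted p = 0.203; 0.445% of genes called). In set B, all 6 lay below both saline arrays, at -0.57 ± 0.12 (adjusted p = 0.105; 0.0234% called). The set B saline arrays had a log2 haemoglobin Hbb signal of 9.22 and 10.2 against 13.0 to 13.6 on the stimulant arrays, and a log2 Gapdh 3′ to 5′ ratio of 1.02 and 1.20 against 0.58 to 1.04. In set A these were 12.1 to 13.8 against 12.1 to 14.5 for Hbb and 0.25 to 0.37 against 0.32 to 0.80 for Gapdh. Of the oligodendrocyte markers in naive PFC, 4 of 5 tested were below saline and 1 was called lower, with list means of 11.9 to 12.4 on saline and 11.7 to 12.3 on stimulant arrays. The part of blood, RNA quality and glia in the Rims1 difference was not tested.

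The striatum was below the signal filter for Rims1 and gives values without a test. Naive saline arrays had 7.19, 7.10, 7.50, 7.24 and 7.24, and the 15 stimulant arrays had a lowest of 6.51, a median of 6.95 and a highest of 7.43. Of these, 14 lay below the saline mean and 12 below every saline array. The difference was -0.32 ± 0.16, with an interval of -0.65 to 0.01.

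Pretreated rats had Rims1 values in the other direction in PFC, except after methamphetamine, with a mean of 8.20 against 8.23 in saline. In their striatum Rims1 was below the signal filter, and the stimulant arrays, at 7.05 to 8.21, overlapped the saline arrays, at 6.62 to 7.52. Their PFC saline arrays had 8.12, 8.30 and 8.26, and the 9 stimulant arrays had a lowest of 8.08, a median of 8.38 and a highest of 8.65, of which 7 lay above every saline array. The difference was 0.16 ± 0.11 (adjusted p = 1.00). The stimulant effect at 5 mg/kg differed by 0.53 between cohorts, with an interval of 0.24 to 0.82 (adjusted p = 0.527; 0.0117% of genes called), and was not called.

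Methylphenidate gave the widest Rims1 contrast between the cohorts. In naive PFC its arrays had 7.74, 7.69 and 7.76, below every saline array, and after pretreatment they had 8.58, 8.65 and 8.48, above every saline array of that cohort. Against saline the differences were -0.53 (adjusted p = 0.108) and 0.34 (adjusted p = 0.510), and against the set B saline arrays alone the naive difference was -0.75 (adjusted p = 0.0242; 0.0234% of genes called). The difference between the cohorts, taken for single stimulants after the data had been seen, was 0.87 ± 0.18 for methylphenidate (adjusted p = 0.0901; 0.0234% of genes called). It was 0.34 for amphetamine (adjusted p = 0.814) and 0.36 for methamphetamine (adjusted p = 0.997). The naive methylphenidate arrays were all in set B and all pretreated arrays had a high BioB signal, so for this pair of groups cohort and array set cannot be told apart.

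**Figure D3:**
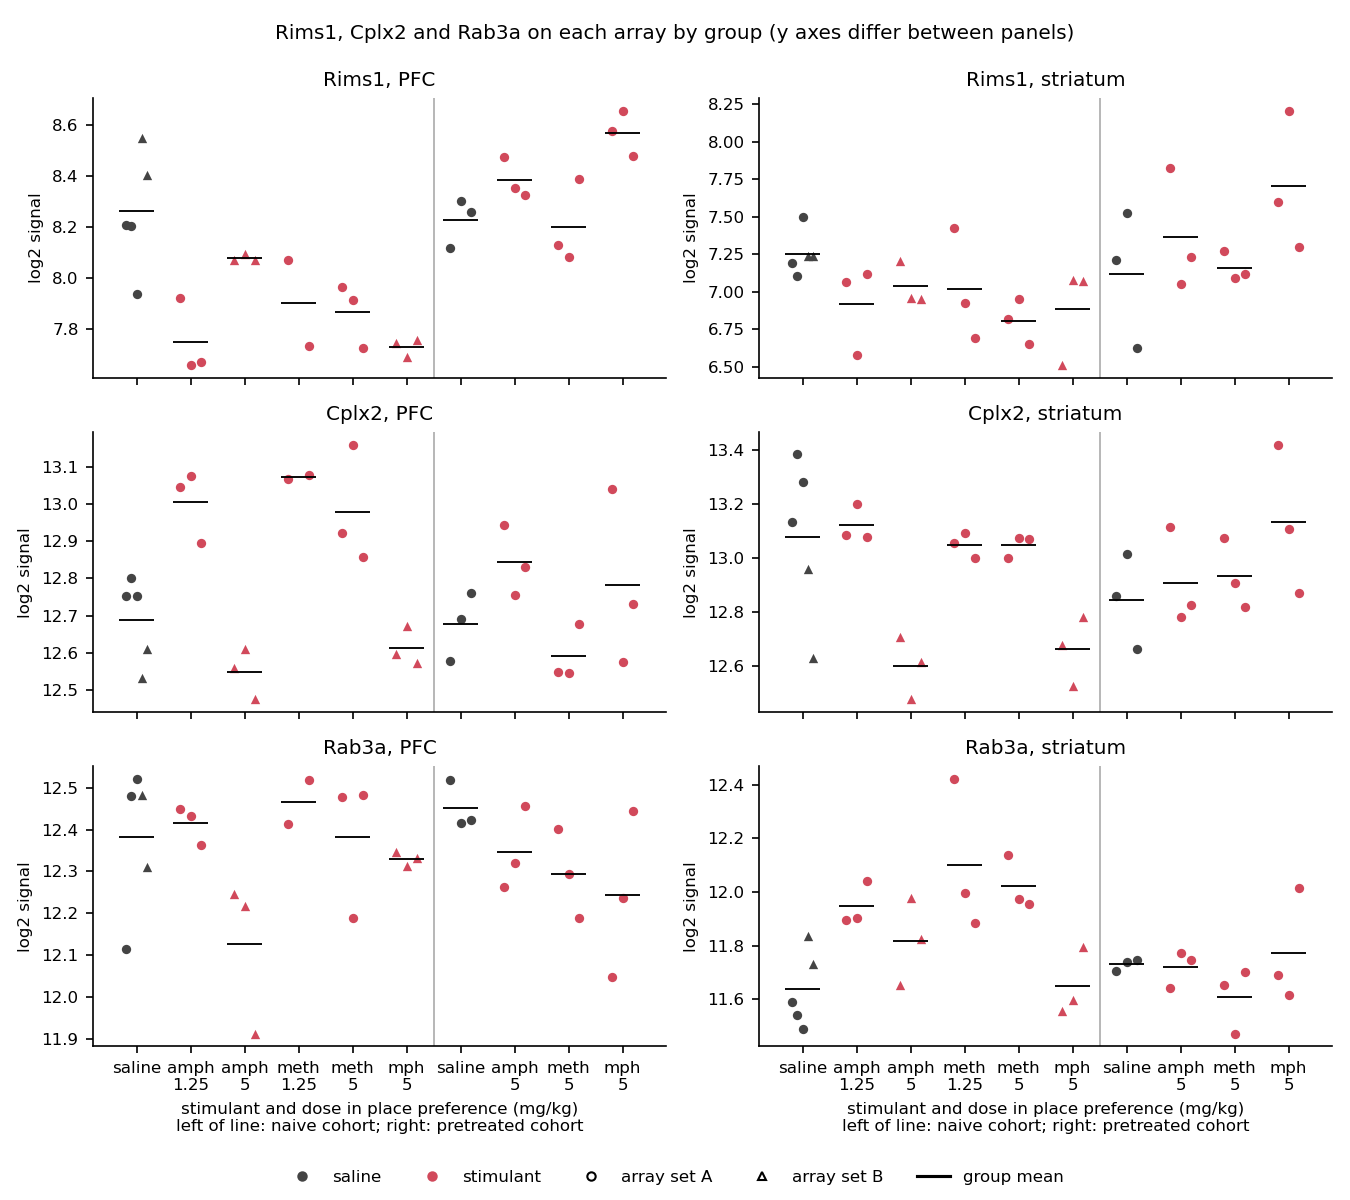
Log2 signal (y) of Rims1, Cplx2 and Rab3a on each array in PFC (left) and striatum (right) by group (x; amph, amphetamine; meth, methamphetamine; mph, methylphenidate; dose in mg/kg), with circles for array set A, triangles for set B and lines for group means. Naive PFC stimulant arrays have Rims1 at 7.66 to 8.09 against a saline mean of 8.26, Cplx2 is low in the set B groups of the naive cohort, and Rab3a is high in the set A stimulant groups of naive striatum.

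Rab3a had its largest stimulant difference in naive striatum, where array sets A and B gave different values. Saline arrays had 11.59, 11.54 and 11.49 in set A and 11.83 and 11.73 in set B. Stimulant arrays of set A had 11.89, 11.90 and 12.04 for amphetamine 1.25 mg/kg, 12.42, 11.99 and 11.88 for methamphetamine 1.25 mg/kg, and 12.14, 11.97 and 11.96 for methamphetamine 5 mg/kg, all 9 above the 3 saline arrays. In set B, amphetamine 5 mg/kg had 11.65, 11.98 and 11.82 and methylphenidate had 11.56, 11.60 and 11.79, overlapping the saline pair.

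Over all arrays the Rab3a difference was 0.27 ± 0.08 (adjusted p = 0.140), with 13 of 15 stimulant arrays above the saline mean, and 0.24 (adjusted p = 0.118) without the array of cortical profile. Within set A, a comparison added after the data had been seen, it was 0.48 ± 0.09 (adjusted p = 0.00984), when 1.72% of genes were called. Within set B it was -0.05 ± 0.12, and the difference between the sets was 0.53 ± 0.15 (unadjusted p = 0.00149, adjusted p = 0.393), which was not called in a comparison that called 0.0117% of genes. Leaving out the array of cortical profile gave 0.43 ± 0.08 in set A (adjusted p = 0.00625; 1.71% of genes called). The call was lost without saline replicate 2 (adjusted p = 0.0562) or saline replicate 3 (adjusted p = 0.154) and stood in the other 10 of 12 runs, with differences from 0.43 to 0.52.

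A second, dimmer Rab3a probe set did not share that rise, with 0.10 in set A (adjusted p = 0.829) and -0.35 in set B. In set A the mean of the 5 cortical markers was 5.54 to 5.95 on the saline arrays and 5.92 to 7.25 on the 8 stimulant arrays other than the array of cortical profile, and none of these markers was at the floor on any array. Oligodendrocyte markers ran the other way, at 12.6 to 12.9 on saline and 12.1 to 12.7 on stimulant arrays. The markers of GABA synthesis and interneurons, Gad1, Gad2, Pvalb, Sst and Vip, had a mean of 9.25 to 9.36 on saline and 9.60 to 9.96 on those stimulant arrays. Astrocyte markers were at 11.45 to 11.63 and 10.79 to 11.37, and the log2 Gapdh 3′ to 5′ ratio at 0.53 to 0.57 and 0.58 to 1.08, none of the 3 measures overlapping. On the array of cortical profile they were 10.33, 11.30 and 0.46. In set B the cortical marker mean was 6.24 and 6.39 on saline and 5.51 to 7.65 on stimulant arrays. Their part in the Rab3a difference was not tested.

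**Figure D4:**
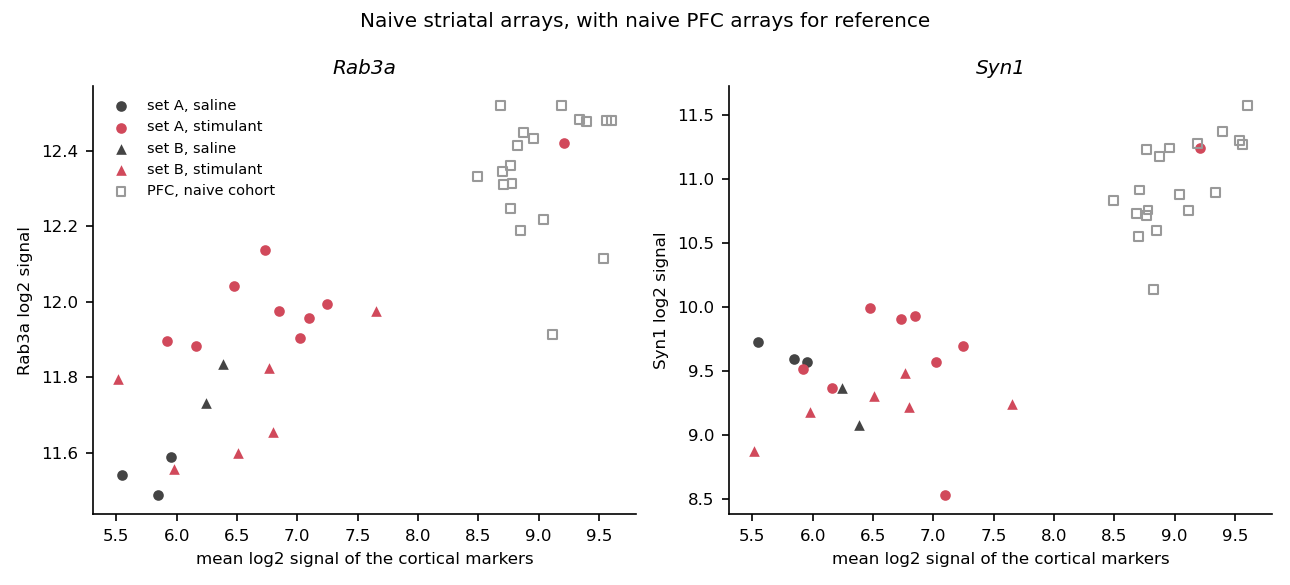
Log2 signal (y) of Rab3a (left) and Syn1 (right) against the mean log2 signal of 5 cortical projection neuron markers (x) on the naive striatal arrays, by array set and treatment, with naive PFC arrays as open squares. The set A saline arrays have Rab3a at 11.49 to 11.59 and cortical markers at 5.54 to 5.95, and the striatal array of cortical profile lies among the PFC arrays.

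Cplx2, which clamps and promotes SNARE-driven fusion, had other levels in set A than in set B. In naive PFC its signal was 12.75, 12.80 and 12.75 on the saline arrays of set A and 12.53 and 12.61 on those of set B. The 8 stimulant arrays of set A, between 12.86 and 13.16, all lay above the set A saline arrays, and the 6 of set B lay between 12.47 and 12.67, around the set B saline pair. In naive striatum the saline arrays had 13.13, 13.39 and 13.28 in set A and 12.96 and 12.63 in set B.

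The Cplx2 stimulant difference within set A was 0.25 ± 0.08 in PFC (adjusted p = 0.150) and -0.19 ± 0.10 in striatum (adjusted p = 0.365), where 8 of 9 stimulant arrays lay below all 3 saline arrays. With all naive arrays the stimulant effect was 0.34 lower in striatum than in PFC (SE 0.11, unadjusted p = 0.00466, adjusted p = 0.751), in a comparison that called 0% of genes. Set B saline arrays were lower than set A saline arrays by 0.20 in PFC (adjusted p = 0.282) and 0.47 in striatum (adjusted p = 0.0645).

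Taken group by group, 5 member calls were made in the PFC, where 9 members were tested, and none in the striatum, where 6 were. Rims1, Syt1, Stx1a and Unc13a were below the striatal filter and could not be called there. Rims1 fell after amphetamine 1.25 mg/kg in naive PFC, where 0.492% of genes were called. Its arrays had 7.92, 7.66 and 7.67, below every saline array, and the difference was -0.51 ± 0.12 (adjusted p = 0.0445). The call was lost without saline replicate 2, 4 or 5 or without any of the 3 amphetamine arrays, with adjusted p from 0.0203 to 0.220, and against set A saline alone it was -0.37 (adjusted p = 0.210; 0.234% of genes called). After methamphetamine 1.25 mg/kg Rims1 stood at -0.36 (adjusted p = 0.0810) and was called without saline replicate 3 (adjusted p = 0.0395). The other PFC groups had no member call, with 0.0117% of genes called after amphetamine 5 mg/kg, 0.0352% after methamphetamine 5 mg/kg and 0% after methylphenidate in naive rats. In pretreated rats the shares were 0.0234%, 0.0117% and 0.0938% (0.0821% higher) for amphetamine, methamphetamine and methylphenidate.

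The other 4 calls came from methamphetamine 1.25 mg/kg in naive PFC, the group of 2 arrays, in which 11.1% of all genes were called, 4.81% higher and 6.33% lower. Syn1 had 10.13 and 10.73 against saline values of 10.89 to 11.30, both below every saline array, a difference of -0.70 ± 0.20 (adjusted p = 0.0271). Syt1 had 7.06 and 6.99, below saline at 7.21 to 8.09, a difference of -0.61 ± 0.20 (adjusted p = 0.0453). Cplx2 had 13.07 and 13.08, above saline at 12.53 to 12.80, a difference of 0.38 ± 0.10 (adjusted p = 0.0232).

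Snap25 had 14.75 and 14.68 in that group, above saline at 14.04 to 14.48, a difference of 0.42 ± 0.12 (adjusted p = 0.0317) that turned to -0.14 (adjusted p = 0.247) under quantile normalization. Without the first of the 2 arrays 6 genes and no member were called in place of 950 genes, and without the second 1264 genes. Cplx2 was lost without either array, and Snap25 without either array or saline replicate 3 or 5. Syt1 was lost without either array or saline replicate 3, 4 or 5, and Syn1 only without the first methamphetamine array, its difference then being -0.40 (adjusted p = 0.585). Against set A saline, with 4.89% of genes called, Syn1 alone of the members passed (-0.85, adjusted p = 0.0271), and the dimmer Syn1 probe set stood at -0.01 (adjusted p = 0.985) against all saline arrays. A dimmer Stx1a probe set was lower in this group (-0.66, adjusted p = 0.0352) while the brighter one was at -0.34 (adjusted p = 0.166).

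3 of 49 other tested pathway genes were called in the same group, in which 950 of all 8530 tested genes were called. The vesicle protein Sv2b was higher (0.75), and the calcium channel subunit Cacna2d1 (-0.62) and the endocytic GTPase Dnm1 (-0.50) were lower. Oligodendrocyte markers had 2 of 5 called lower and 1 higher, and the cortical marker list 1 of 4 lower. The log2 Gapdh 3′ to 5′ ratio was 0.80 on the first and 0.42 on the second array of the group, against 0.25 to 0.37 on the set A and 1.02 and 1.20 on the set B saline arrays. The log2 BioB signal was 10.63 on the first array, the highest of the set A arrays of naive PFC. The interneuron marker mean was 10.06 and 10.14 on the 2 arrays and 10.20 to 10.68 on the 5 saline arrays, without overlap. The part of cell composition and RNA quality in these calls was not tested.

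In the striatum, the single groups called between 0% and 0.703% of all genes and none of the 6 members tested there. After methamphetamine 1.25 mg/kg, the group that holds the array of cortical profile, Syn1 stood at 0.63 and Syn2 at 0.67 above saline (Syn2 adjusted p = 0.0954). Without that array Syn1 stood at 0.06 (adjusted p = 0.980), Syn2 at 0.35 (adjusted p = 0.631) and Rab3a at 0.30 (adjusted p = 0.446). Without replicate 2 or 3 of that group, which gives the array of cortical profile more weight, Syn2 and Rab3a were called (lowest adjusted p 0.0216 and 0.0180). Cplx2 was called after amphetamine 5 mg/kg and methylphenidate in naive striatum without saline replicate 5 (-0.59 and -0.53, adjusted p = 0.0124 and 0.0260). Both groups lie in set B, and replicate 5 is a set B saline array. Against set B saline alone the Cplx2 differences were -0.20 and -0.13 (adjusted p = 0.997 and 0.999; 0.0117% of genes called in each).

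Among the pathway genes, Snph, a syntaxin-binding protein of axonal mitochondria, rose in pretreated striatum (0.53, adjusted p = 0.0109), after methamphetamine (0.50, adjusted p = 0.0420) and after methylphenidate (0.62, adjusted p = 0.0480). Its stimulant effect was 0.66 larger in pretreated than in naive striatum (adjusted p = 0.0270; 0.0586% of genes called). All 4 Snph calls were lost without pretreated saline replicate 1, 2 or 3. Without replicate 1 no gene was called in any of these comparisons, and Snph stood at 0.56, 0.53, 0.65 and 0.69 in that order (adjusted p = 0.0662, 0.128, 0.189 and 0.145). The calls after methamphetamine and after methylphenidate stood in 1 of 6 runs each, and the call between the cohorts in 16 of 26, with adjusted p up to 0.163. In pretreated striatum the striatal projection neuron markers had a mean of 12.41 to 12.57 on saline and 12.07 to 12.37 on stimulant arrays, without overlap, and the cortical markers 5.43 to 6.16 and 5.95 to 7.60. Their part in the Snph difference was not tested. Dnm3, an endocytic dynamin, was 1.06 lower after methylphenidate in naive striatum (log2 difference -1.06, adjusted p = 0.0472; 0.129% of genes called). That call stood in 2 of the 8 runs with an array left out, those without saline replicate 4 or 5. Both are set B saline arrays, and all naive methylphenidate arrays are in set B. Without saline replicate 3 the Dnm3 difference was -1.05 (adjusted p = 0.152) and no gene was called. The highest adjusted p was 0.177, without methylphenidate replicate 1. The part of the array set in the Dnm3 difference was not tested.

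**Figure D5:**
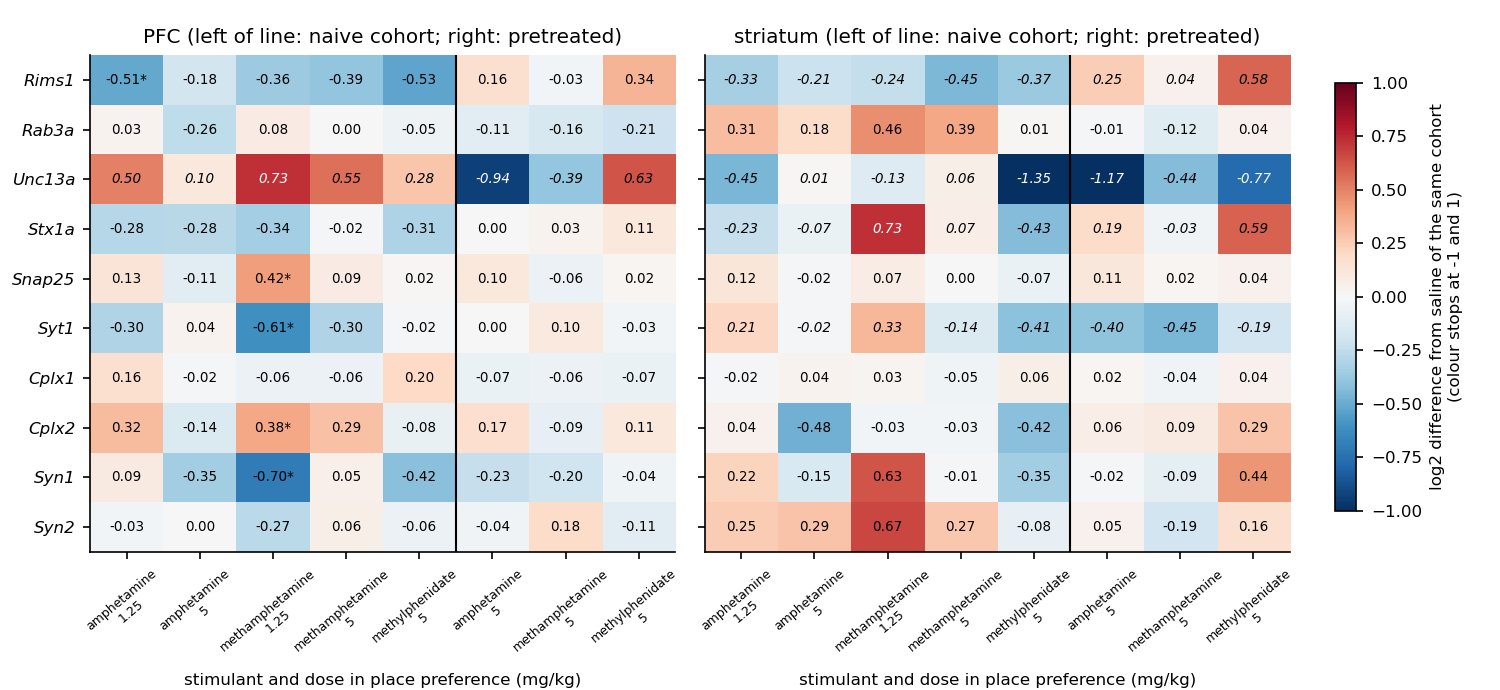
Log2 difference from saline of the same cohort (colour and number) for each release gene (rows) and stimulant group (columns) in PFC and striatum; an asterisk marks an adjusted p below 0.05 and italics a gene below the signal filter. The 5 asterisks are Rims1 after amphetamine 1.25 mg/kg and Snap25, Syt1, Cplx2 and Syn1 after methamphetamine 1.25 mg/kg, all in naive PFC.

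The stimulants were compared with each other at matched conditioning doses in 14 comparisons over the 2 regions and cohorts, each adjusted over all genes tested. The dose per infusion in self-administration matched only between amphetamine and methamphetamine, not for methylphenidate. Amphetamine and methamphetamine, which differ by the N-methyl group, gave 2 member calls. At 5 mg/kg in naive PFC, Cplx2 had 12.56, 12.61 and 12.47 after amphetamine and 12.92, 13.16 and 12.86 after methamphetamine, without overlap, a difference of 0.43 ± 0.10 (adjusted p = 0.0327; 1.45% of genes called, 0.692% lower). These groups lie in different array sets, and with the set as a block the difference was 0.24 (adjusted p = 0.808). The call was lost without any array but methamphetamine replicate 3, with adjusted p up to 0.130.

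At 1.25 mg/kg in naive PFC, where both groups are in set A, Syn1 had 11.17, 11.24 and 11.23 after amphetamine and 10.13 and 10.73 after methamphetamine, a difference of -0.78 ± 0.22 (adjusted p = 0.0363; 6.26% of genes called, 2.57% higher). It was called with the array set as a block (adjusted p = 0.0291) and lost without methamphetamine replicate 1 (adjusted p = 0.658) or any amphetamine array. The dimmer Syn1 probe set gave -0.12. No member was called between the same drugs in pretreated PFC, where the Cplx2 interval was -0.46 to -0.04 (adjusted p = 0.997; 0% of genes called), or in the striatum.

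Methylphenidate and amphetamine at 5 mg/kg, both in set B in naive rats, gave no member call and 0% of genes called in PFC. The 95% intervals there were -0.62 to -0.08 for Rims1, 0.02 to 0.42 for Cplx1, -0.14 to 0.27 for Cplx2 and -0.38 to 0.26 for Syn2, so differences of that size remain possible. Methylphenidate minus methamphetamine in naive PFC gave -0.37 for Cplx2 (adjusted p = 0.0569; 1.85% of genes called, 1.14% higher and 0.715% lower), again across the array sets. Syn1 was called there without methamphetamine replicate 2 (-0.76, adjusted p = 0.0244). In naive striatum the same pair gave -0.39 for Cplx2 (adjusted p = 0.146) and -0.37 for Rab3a (adjusted p = 0.100; 1.57% of genes called). The SNAP-25 relative Snap23 was 0.66 higher there after methylphenidate (adjusted p = 0.0136).

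The 2 conditioning doses were compared in naive rats. Amphetamine at 5 mg/kg gave a lower Cplx2 signal in PFC than at 1.25 mg/kg, at 12.56, 12.61 and 12.47 against 13.05, 13.08 and 12.90, without overlap. The difference was -0.46 ± 0.10 (adjusted p = 0.0108; 7.07% of genes called) and was called with each of the 6 arrays left out. In striatum the values were 12.71, 12.48 and 12.61 against 13.09, 13.20 and 13.08, a difference of -0.52 (adjusted p = 0.0602; 1.68% of genes called).

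The 2 amphetamine doses lie in different array sets, and with the set as a block the PFC difference of Cplx2 was -0.26 (adjusted p = 0.717). Of 49 other tested pathway genes, 5 were called lower at the higher dose in PFC without that block, when 603 of all 8530 tested genes were called in either direction. They were Syt3 (-0.84), Rab3b (-0.77), Sv2a (-0.61), Sncb (-0.56) and Bsn (-0.50), and the part of the array set in their differences was not tested. A dimmer Cplx1 probe set was also lower (-0.93, adjusted p = 0.0334) while the brighter one stood at -0.18 (adjusted p = 0.262). Methamphetamine at 5 and 1.25 mg/kg, both in set A, differed in no member, with 0% of genes called in either region. The PFC intervals were -0.34 to 0.27 for Rims1, -0.32 to 0.14 for Cplx2 and 0.31 to 1.19 for Syn1 (adjusted p = 0.204), the last being called without methamphetamine 1.25 mg/kg replicate 2 (1.04, adjusted p from 0.00383 to 0.941 over the 5 arrays left out in turn). Without methamphetamine 5 mg/kg replicate 2, Syn1, Syn2 and Stx1a were called (1.04, 0.54 and 0.50; adjusted p = 0.00383, 0.0262 and 0.0487).

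Differences in the stimulant effect between the cohorts and between the regions were tested directly. No member passed between pretreated and naive rats in PFC (0.0117% of genes called) or striatum (0.0586%). Cplx2 had the largest such difference of the tested members in striatum, 0.45 (adjusted p = 0.143), called without striatal saline replicate 5 of the naive cohort (0.57, adjusted p = 0.0471). That saline array and all naive amphetamine 5 mg/kg and methylphenidate arrays are in set B, while every pretreated array had a high BioB signal. Cohort and array set are thus partly mixed in these differences, and set B saline was 0.47 lower than set A saline for Cplx2 in striatum. Between striatum and PFC no member and 0% of genes passed in either cohort, the largest differences of tested members in the naive cohort being -0.34 for Cplx2 and 0.34 for Syn2 (adjusted p = 0.780). At an unadjusted p under 0.05 there were 541 genes in the naive and 438 in the pretreated cohort. The striatal array of cortical profile enters the naive comparison of the regions. Without that array the stimulant effect in naive striatum alone fell to 0.22 for Syn2 and stood at -0.18 for Cplx2.

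Over the 20 group means, the genes whose pattern was most like that of Rims1 were Aagab (Pearson r = 0.94), Nos1ap (0.94), Nudt4 (0.94), Mgll (0.94) and Abcb10 (0.94). For the mean of the 10 members they were Ppp5c (0.99), Rhof (0.99), Basp1 (0.98), the vesicle protein Syp (0.98) and Dgkz (0.98). These likenesses are descriptions over 10 PFC and 10 striatal groups, and the regional difference that all points share weighs in them.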

How the data were processed

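The deposited values are linear MAS5 intensities, 1 per probe set and array; MAS5 comes from the submitters' processing notes. All arrays have a trimmed mean of 500.0, so a change in total RNA cannot be seen, and medians of 120 to 156. The number of arrays limits the precision. Of 31099 probe sets, 20832 carry a single symbol in the platform annotation. Intensities under 1 (18232 values) were raised to 1 before log2. In each region the dimmest 40% of genes were dropped, which kept 8530 genes and 9 members in PFC, 6 in striatum and 8 over both. limma 3.58.1 under R 4.3.3 fitted 1 mean per group to all arrays of a region, with eBayes and an intensity trend (21 residual degrees of freedom in PFC, 22 in striatum, 43 over both), and Benjamini-Hochberg adjustment ran over all tested genes. The fit was tested on simulated data. All 10 members were named. Of 70 named pathway genes, up to 5 per direction with the largest change among those called were named, or else up to 2 of smallest p. The members and lists were chosen with earlier results of these data known. Alternatives covered scaling, filters, probe sets, the trend, 1 cohort only, a replicate block, the array set, the Gapdh ratio and leaving out each array. Comparisons within the array sets and for single stimulants between cohorts, and leaving out arrays for Snph and Dnm3, were added after the data had been seen.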

Additional observations from a re-analysis of the deposited data

Results flagged for a closer look

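Dixon's test for a single distant array was run in the groups of 5, which are the naive saline groups of each region, 20 tests in all over the members, and chance marks about 1 in 20. It marked 4 arrays. Stx1a, the syntaxin of the plasma membrane, was 10.551 on PFC saline replicate 1 while the other 4 arrays had 9.75 to 9.95. The same gene was 7.8754 on striatal saline replicate 4, with 7.41 to 7.52 on the others. Syn2 was 11.264 on PFC saline replicate 3, with 10.86 to 10.97 on the others. Unc13a was 2.7066 on PFC saline replicate 4, with 5.20 to 5.69 on the others. No explanation was tested for these values.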

How the results depend on the processing

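The regional calls numbered 5 to 8 in naive and 4 to 7 in pretreated rats over the alternatives, the lowest being under a filter of 60% that tests fewer members, and 7 to 7 and 5 to 6 with an array left out. Snap25 in pretreated rats was lost without a filter (adjusted p = 0.0579) and in 1 cohort only (0.0515). The calls in single PFC groups fell from 5 to 3 under quantile normalization, under a filter of 60%, with all probe sets and in 1 cohort only, and to 2 without a filter or with the array set as a block (1 to 5 with an array left out). The single call of the PFC dose comparison went to 0 with the array set as a block (1 to 4 with an array left out). The 2 calls between stimulants in PFC went to 0 without a filter, in 1 cohort only and with the Gapdh ratio as covariate, and to 1 with the array set as a block (1 to 3). Naive PFC stimulants against saline went from 0 to 1 call, that of Rims1, without the intensity trend, with the array set as a block and with the Gapdh ratio (0 to 1). Single striatal groups went from 0 to 1 with the array set as a block (0 to 2), and the striatal dose and cohort comparisons from 0 to at most 1 with an array left out. Snap25 after methamphetamine 1.25 mg/kg in PFC reversed to -0.139 under quantile normalization. The cause of these changes was not tested.

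Replicate numbers were not shown to pair arrays of different groups, whose same-numbered arrays had a median r of 0.027 in PFC and -0.011 in striatum. PFC and striatal arrays of 1 group and number did deviate together. Their median r was 0.203 (23 of 31 pairs over 0.1), against -0.101 for other numbers. The regional fit treats these arrays as independent, and with the replicate block it gave 7 and 6 calls. That block has 1 effect per number over all groups, so it does not model pairs within a group. With the replicate number as a block, the single PFC groups had 3 calls, the single striatal groups 2, and the striatal dose, pair and cohort comparisons 1 each. Naive striatal stimulants against saline had 2, Rab3a (0.37) and Cplx2 (-0.37). In each region the 2 set B saline arrays carry replicate numbers that no other group has. Within a region the block takes up those arrays, so naive stimulants of both sets are compared with set A saline alone. The part of the array set in these calls was not tested.

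Counts over all genes moved by over 1.5 times in several comparisons. Methamphetamine 1.25 mg/kg in PFC called 950 genes, 417 with the array set as a block and 135 with the replicate block. Naive striatum called 8 genes, 21 without the array of cortical profile, 16 with the array set as a block and 206 with the replicate block. In naive comparisons with saline, the replicate block leaves only the set A saline arrays. The PFC amphetamine dose comparison called 603 and 26 with the array set as a block. Of the members' differences under settings other than leaving out an array, 3202 kept direction and side of the threshold, 148 moved, 27 lost and 17 gained a call. With an array left out these were 2853, 248, 31 and 14.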
